A study of Mus musculus with 9 samples.

Results

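Complement components made by the liver were followed in mice whose livers produced interferon-alpha. The 9 genes C1ra, C1s1, C2, C3, C4b, Cfb, Cfi, Hc and Serping1 were chosen by their gene symbol in the platform annotation. For a symbol with several probe sets, the one with the highest mean over the arrays was taken. Of these 9 genes, 8 had a probe set, among 19494 named genes on the array, and C3 was not analysed here. All 8 passed the filter on low values described with the tests, and every one of their values lay above 7 on the log2 scale. Gene expression was measured in the liver of 9 wild-type C57BL/6 mice, 6 weeks old per the labels and female per the methods, on 1 array per mouse, at day 15. Mock mice (n = 3) were not injected, AAV-IFNα mice (n = 3) had received an adeno-associated vector of serotype AAV8 encoding mouse interferon-alpha intravenously, and AAV combination mice (n = 3) had received AAV-IFNα plus AAV-L37pA. AAV-L37pA encodes L37pA, a peptide that mimics apolipoprotein A-I. In both vectors the transgene was driven by the promoter of elongation factor 1α, which is active in most cell types. Arrays of AAV-L37pA alone and of an empty or control vector were not part of the design, and the total vector dose was larger in the AAV combination. What interferon-alpha does and what vector injection itself does cannot be told apart in the comparisons with Mock. Likewise, L37pA and the larger vector dose cannot be told apart between the AAV combination and AAV-IFNα.

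Complement is a cascade of plasma proteases and their substrates, most of which are secreted by hepatocytes. In the classical pathway, C1q bound to a target activates the proteases C1r and C1s, C1s cleaves C4 and C2, and their fragments form an enzyme that cleaves C3. Factor B builds the corresponding enzyme of the alternative pathway, cleavage of C5 starts the membrane attack complex, and C1 inhibitor and factor I switch the cascade off at its start and at its fragments C3b and C4b. Interferons and acute phase cytokines are known to raise transcription of several of these genes.

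The starts of C1ra and C1s1 are shown because these neighbours on chromosome 6 encode the paired proteases of C1, and that of Hc because its encoded protein acts late in the cascade. RefSeq promoter windows of GRCm38.p6, with 250 bases before and 50 after an annotated start, were at hand for 3 of the 8 measured genes, in 4 windows since C1s1 has 2 starts. The runs below are the 250 bases before the start, 5′ to 3′ on the strand of the gene, and capitals mark a match to a searched motif. The C1ra run is chr6:124512371-124512620 on the plus strand, the C1s1 run is chr6:124542360-124542609 on the minus strand before the outer (more upstream) start, and the Hc run is chr2:35061413-35061662 on the minus strand. The shorter C1ra run of 25 bases, chr6:124512637-124512661 on the plus strand, lies after the start.
C1ra, before the start: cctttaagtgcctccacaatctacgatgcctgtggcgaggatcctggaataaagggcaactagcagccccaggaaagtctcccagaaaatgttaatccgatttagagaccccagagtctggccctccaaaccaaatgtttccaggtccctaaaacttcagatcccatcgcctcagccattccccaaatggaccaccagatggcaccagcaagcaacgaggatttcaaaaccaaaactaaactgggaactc
C1ra, after the start: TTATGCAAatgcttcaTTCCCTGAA
C1s1, before the start: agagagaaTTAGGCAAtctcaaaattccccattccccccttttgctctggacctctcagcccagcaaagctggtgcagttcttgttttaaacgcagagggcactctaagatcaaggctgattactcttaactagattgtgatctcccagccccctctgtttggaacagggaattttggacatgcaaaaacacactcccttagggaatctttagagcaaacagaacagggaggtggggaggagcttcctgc
Hc, before the start: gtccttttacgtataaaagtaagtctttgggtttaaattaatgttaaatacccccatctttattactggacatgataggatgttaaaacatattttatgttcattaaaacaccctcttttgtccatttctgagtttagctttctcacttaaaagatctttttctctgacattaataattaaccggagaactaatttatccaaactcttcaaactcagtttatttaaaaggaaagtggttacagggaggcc

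In each window of 300 bases 4 motifs were searched on both strands: the core of the interferon-stimulated response element (GAAA, then any 2 bases, then GAAA again), the gamma-activated sequence that STAT proteins bind (TTCNNNGAA), a C/EBP motif (TTGCNNAA) and the NF-kB motif. Of 32851 RefSeq windows of the same length, 3.44% held the first, 8.3% the second, 10.8% the third and 8.46% the fourth. C1ra held a C/EBP match 16 bases and a gamma-activated sequence match 32 bases after its start. C1s1 held a C/EBP match at -242 from its outer start and no match in the window of its inner start. None of the 4 motifs was matched in the Hc window. A match describes the letters only, and nothing on binding was measured.

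The deposited values are on the log2 scale, so a difference of 1 is a doubling of signal. limma was fitted once to all 9 arrays, with two-sided tests, over the 14715 probe sets that exceeded 5 on 2 or more arrays of a group. A gene is said to be higher or lower where the p-value adjusted by the Benjamini-Hochberg method over all of these probe sets was under 0.05, and intervals are 95% confidence intervals of the fit. Array medians lay between 5.78 and 5.83, and no array stood clearly apart. Nothing in the sources says how the 3 arrays of a group relate beyond 1 mouse each, and their number limits the precision. The hepatocyte list, with Alb and Ttr among its 10 markers, had a summed linear signal of 57532 to 61382 in Mock, 60100 to 61459 with AAV-IFNα and 59713 to 63390 with the AAV combination. These ranges overlap, and none of the 10 markers had a group mean under 5. In whole liver, fewer cells of a type and less RNA per cell cannot be told apart.

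With AAV-IFNα, 5 of the 8 measured complement components were higher than in Mock, namely C2, C1ra, Serping1, C4b and C1s1, and all 8 had a mean above that of Mock. Over all probe sets tested, 11.2% were higher and 5.06% lower. The 5 genes rose between 1.44-fold and 3.05-fold. With the cut-off used in the methods (B-statistic above 0), C2, C1ra and Serping1 kept their call and C4b and C1s1 lost it, at B = -0.31 and -0.83. Of all probe sets tested, 6.03% had a B-statistic above 0 in this comparison, both directions together. With the AAV combination, 3 of 8 were higher than in Mock, C2, C1ra and Serping1, against 4.19% of all probe sets higher and 1.03% lower. The median log2 difference from Mock was 0.58 for the 8 genes with AAV-IFNα and 0.40 with the AAV combination, whereas the medians of all probe sets were -0.02 and 0.002. Both comparisons share the Mock arrays. Between the AAV combination and AAV-IFNα none of the 8 differed at the adjusted threshold, against 0.394% of probe sets higher and 2.2% lower. Without adjustment, 3 of 8 had p under 0.05, all of them lower in the AAV combination, against 7.89% of all probe sets.

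**Figure D1:**
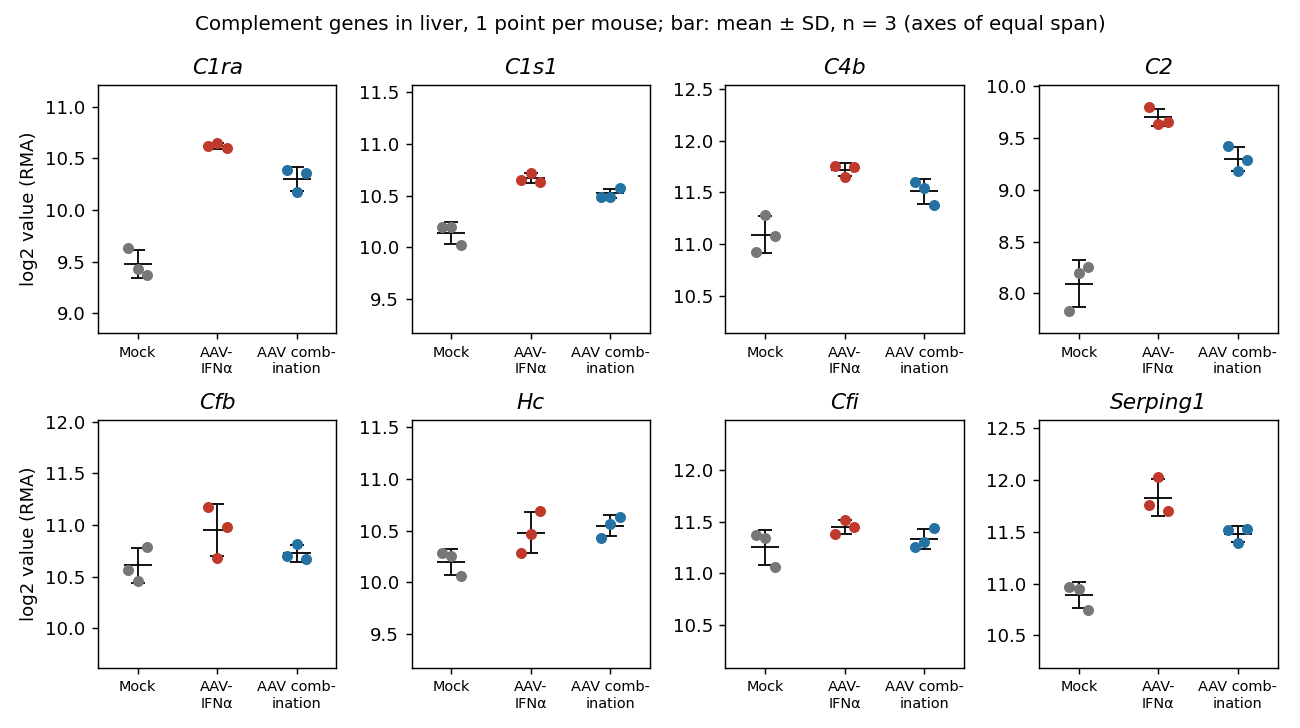
Log2 values (RMA) of the 8 measured complement genes, with 1 point per mouse in the Mock, AAV-IFNα and AAV combination groups and bars for mean ± SD (n = 3), on axes of equal span. C2, C1ra and Serping1 separate clearly between Mock and both treated groups, whereas the points of Cfb and Cfi from Mock and the AAV combination lie among each other.

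The proteases that open the classical pathway were both higher with AAV-IFNα, C1ra by more than C1s1. C1ra, a mouse gene for the protease C1r, read 9.63, 9.43 and 9.37 in Mock (9.48 ± 0.14, SD, n = 3), 10.62, 10.65 and 10.60 with AAV-IFNα (10.62 ± 0.027, SD, n = 3), and 10.39, 10.17 and 10.36 with the AAV combination (10.30 ± 0.12, SD, n = 3). The 3 groups did not overlap at any pair, with Mock lowest and AAV-IFNα highest. C1ra rose 2.21-fold with AAV-IFNα (log2 difference 1.15, interval 0.88 to 1.41, adjusted p = 3.1e-05) and 1.78-fold with the AAV combination (0.83, interval 0.56 to 1.10, adjusted p = 0.0013). The difference between the treated groups was -0.32 (interval -0.58 to -0.05, adjusted p = 0.30).

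C1s1, for the protease C1s that C1r activates, read 10.20, 10.20 and 10.02 in Mock (10.14 ± 0.11, SD, n = 3). The values were 10.65, 10.72 and 10.63 with AAV-IFNα (10.67 ± 0.044, SD, n = 3) and 10.49, 10.49 and 10.57 with the AAV combination (10.52 ± 0.044, SD, n = 3). All treated arrays were above all Mock arrays, and the 3 combination arrays were below the 3 AAV-IFNα arrays. C1s1 rose 1.44-fold with AAV-IFNα (0.53, interval 0.27 to 0.78, adjusted p = 0.0084). With the AAV combination its difference from Mock was 0.38 (interval 0.12 to 0.63, adjusted p = 0.081), and between the treated groups it was -0.15 (interval -0.40 to 0.10, adjusted p = 0.73). In the RefSeq order of GRCm38.p6 no protein-coding gene lies between C1ra and C1s1, and their further copies C1rb and C1s2 follow directly. C1ra and C1rb, and C1s1 and C1s2, are near-identical copies, so their separate levels are uncertain where probes are shared.

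The substrates of C1s were both higher with AAV-IFNα, and C2 changed by more than any other of the 8 genes in both comparisons with Mock. C2, the protease subunit of the classical C3 convertase, read 7.83, 8.20 and 8.25 in Mock (8.09 ± 0.23, SD, n = 3), 9.80, 9.64 and 9.66 with AAV-IFNα (9.70 ± 0.086, SD, n = 3), and 9.42, 9.18 and 9.29 with the AAV combination (9.30 ± 0.12, SD, n = 3). The lowest treated array stood 0.93 above the highest Mock array, and the combination arrays were all below the AAV-IFNα arrays. C2 rose 3.05-fold with AAV-IFNα (1.61, interval 1.30 to 1.91, adjusted p = 4.1e-06) and 2.31-fold with the AAV combination (1.21, interval 0.90 to 1.51, adjusted p = 0.00016). Between the treated groups its difference was -0.40 (interval -0.71 to -0.10, adjusted p = 0.21).

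C4b, for complement C4, which is cleaved by C1s and by the lectin pathway proteases, read 10.92, 11.28 and 11.08 in Mock (11.09 ± 0.18, SD, n = 3). It read 11.76, 11.65 and 11.75 with AAV-IFNα (11.72 ± 0.06, SD, n = 3) and 11.60, 11.54 and 11.38 with the AAV combination (11.51 ± 0.12, SD, n = 3). Mock replicate 2 came within 0.1 of the lowest combination array, and no groups overlapped. C4b rose 1.54-fold with AAV-IFNα (0.63, interval 0.34 to 0.91, adjusted p = 0.0058). Its difference was 0.41 between the AAV combination and Mock (interval 0.13 to 0.70, adjusted p = 0.087) and -0.21 between the treated groups (interval -0.50 to 0.07, adjusted p = 0.61). C4a is a near-identical copy of C4b, and how the probe sets divide their transcripts is uncertain.

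Cfb, for factor B, the alternative pathway counterpart of C2, did not pass the threshold in any comparison. It read 10.57, 10.46 and 10.79 in Mock (10.61 ± 0.17, SD, n = 3), 11.18, 10.68 and 10.98 with AAV-IFNα (10.95 ± 0.25, SD, n = 3), and 10.70, 10.82 and 10.67 with the AAV combination (10.73 ± 0.082, SD, n = 3). Mock replicate 3 lay above AAV-IFNα replicate 2 and within the range of the combination arrays. The difference from Mock was 0.34 with AAV-IFNα (interval 0.02 to 0.66, adjusted p = 0.13) and 0.13 with the AAV combination (interval -0.20 to 0.45, adjusted p = 0.65). Between the treated groups it was -0.22 (interval -0.54 to 0.10, adjusted p = 0.66).

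Hc, which encodes complement C5, read 10.29, 10.26 and 10.06 in Mock (10.20 ± 0.13, SD, n = 3), 10.29, 10.47 and 10.69 with AAV-IFNα (10.48 ± 0.20, SD, n = 3), and 10.43, 10.57 and 10.63 with the AAV combination (10.55 ± 0.10, SD, n = 3). It was the single gene of the 8 whose mean was not highest with AAV-IFNα. The lowest AAV-IFNα array was level with the highest Mock array to within 0.01, and the combination arrays lay inside the AAV-IFNα range. The difference from Mock was 0.28 with AAV-IFNα (interval -0.01 to 0.58, adjusted p = 0.17) and 0.34 with the AAV combination (interval 0.05 to 0.64, adjusted p = 0.16). Between the treated groups it was 0.06 (interval -0.24 to 0.36, adjusted p = 0.93).

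Of the inhibitors, Serping1 was higher in both treated groups and Cfi in neither at the adjusted threshold. Serping1, for C1 inhibitor, which binds and inactivates C1r and C1s, read 10.97, 10.95 and 10.74 in Mock (10.89 ± 0.13, SD, n = 3). It read 11.76, 12.03 and 11.70 with AAV-IFNα (11.83 ± 0.18, SD, n = 3) and 11.52, 11.39 and 11.53 with the AAV combination (11.48 ± 0.077, SD, n = 3). No groups overlapped, and Mock was lowest and AAV-IFNα highest. Serping1 rose 1.92-fold with AAV-IFNα (0.94, interval 0.66 to 1.23, adjusted p = 0.00032) and 1.51-fold with the AAV combination (0.59, interval 0.31 to 0.88, adjusted p = 0.022). The second call was lost at a B-statistic above 0 (B = -0.65) and when 1 array was left out, namely Mock replicate 3 (0.52, adjusted p = 0.082) or any combination array, with 0.57 (adjusted p = 0.057) for replicate 1, 0.64 (adjusted p = 0.0503) for replicate 2 and 0.57 (adjusted p = 0.096) for replicate 3. The difference between the treated groups was -0.35 (interval -0.64 to -0.06, adjusted p = 0.28).

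Cfi, for factor I, the protease that cleaves C3b and C4b in the presence of cofactors, varied least between the groups. It read 11.37, 11.34 and 11.06 in Mock (11.25 ± 0.17, SD, n = 3), 11.38, 11.51 and 11.45 with AAV-IFNα (11.45 ± 0.067, SD, n = 3), and 11.25, 11.30 and 11.44 with the AAV combination (11.33 ± 0.097, SD, n = 3). The Mock and AAV-IFNα arrays were separated by 0.01 only. The difference from Mock was 0.19 with AAV-IFNα (interval -0.09 to 0.47, adjusted p = 0.33) and 0.08 with the AAV combination (interval -0.20 to 0.35, adjusted p = 0.77). Between the treated groups it was -0.12 (interval -0.39 to 0.16, adjusted p = 0.84). Mock replicate 3 was the lowest Mock array for 5 of the 8 genes, Cfi among them, and Mock replicate 1 the highest for 5.

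**Figure D2:**
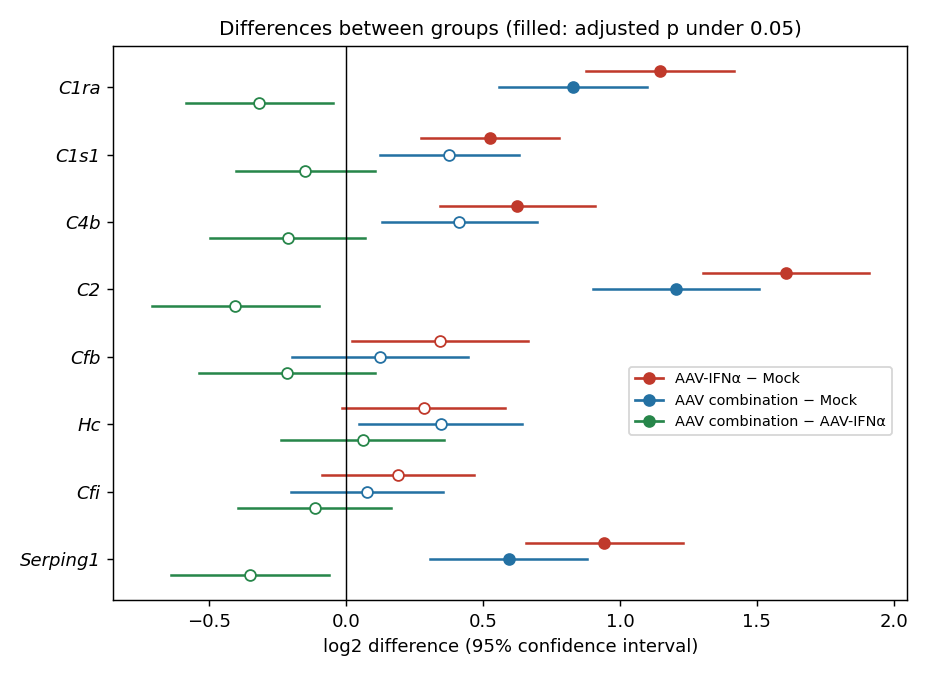
Log2 differences (x axis) of the 8 complement genes in the 3 comparisons, with 95% confidence intervals as lines and filled points where the adjusted p was under 0.05. The AAV-IFNα points exceed 0 for all 8 genes and are filled for 5, the AAV combination points against Mock are filled for 3, and all 8 points of the AAV combination against AAV-IFNα are open.

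The order of the group means was Mock, AAV combination, AAV-IFNα for 7 of the 8 genes, all but Hc. In 5 of these, C1ra, C1s1, C2, C4b and Serping1, the 3 combination arrays were all below the 3 AAV-IFNα arrays. How many of all probe sets showed the same order or separation was not counted. Both counts therefore lack a background, and whether they exceed it was not tested. For none of the 8 did the step from the AAV combination to AAV-IFNα pass the adjusted threshold, while the intervals of C1ra, C2 and Serping1 lay below 0. The intervals are those of single genes and are not adjusted for the number of tests. The adjusted p-values of limma were 0.30, 0.21 and 0.28 for C1ra, C2 and Serping1. At these 3 genes the intervals allow a difference as small as -0.05, -0.10 and -0.06 and as large as -0.58, -0.71 and -0.64 between the treated groups.

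Neighbouring genes with related products were compared within each array. Cfb and C2 lie next to each other on chromosome 17, with no protein-coding gene between them, and arose from a common ancestor gene. The log2 ratio of C2 over Cfb within an array carries the unequal brightness of the probes, so only its change between groups can be read. This ratio and that of C1ra over C1s1 were chosen after their values were seen. Their changes restate the differences of the single genes given above, and the tests of the ratios add no further evidence. C2 over Cfb read -2.74, -2.27 and -2.54 in Mock, -1.38, -1.04 and -1.32 with AAV-IFNα and -1.28, -1.64 and -1.38 with the AAV combination. The ratio was thus higher on every treated array than on every Mock array, by 1.27 with AAV-IFNα and 1.08 with the AAV combination (exact permutation test, two-sided, p = 0.10 each, the smallest that 3 against 3 arrays allow, and 0.12 adjusted over the 6 comparisons of the 2 ratios). Between the treated groups the ratios overlapped, with a difference of -0.19 (exact permutation p = 0.40).

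C1ra over C1s1 read -0.58, -0.77 and -0.65 in Mock, -0.03, -0.07 and -0.04 with AAV-IFNα and -0.11, -0.32 and -0.21 with the AAV combination. The 3 groups were apart, with differences from Mock of 0.62 with AAV-IFNα and 0.45 with the AAV combination, and of -0.17 between the treated groups (exact permutation p = 0.10 each, adjusted p = 0.12). The signal of C1ra relative to its neighbour C1s1 was thus higher on every treated array than on every Mock array.

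**Figure D3:**
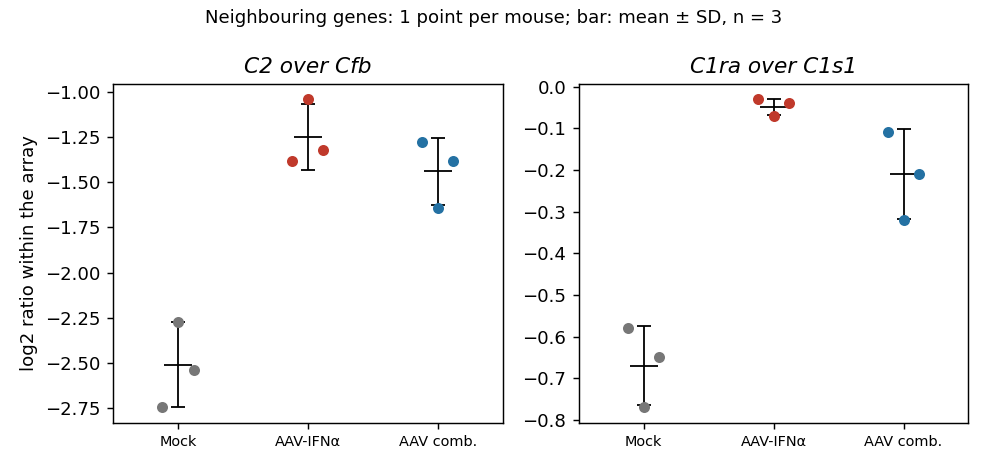
Log2 ratio within the array (y axis) of C2 over Cfb and of C1ra over C1s1, with 1 point per mouse and bars for mean ± SD (n = 3). All treated arrays lie above all Mock arrays in both panels, and the y axes differ in span.

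For each of the 5 genes higher with AAV-IFNα, the genes with the most similar course over the 9 arrays were sought among 13239 others, by the root mean square difference of log2 values after each gene's own mean was subtracted. Nearest to C1ra were its copy C1rb at 0.087 and H2-K1, an MHC class I heavy chain, at 0.090. Nearest to C2 were H2-T23, a further MHC class I gene, at 0.11 and Tcirg1 at 0.13. Serping1 ran closest to Tmem176a at 0.078 and Psma1 at 0.085, C4b to Tbrg1 at 0.082 and Il18 at 0.084, and C1s1 to Elf2 at 0.050 and BC004004 at 0.065. These distances include the noise of the arrays, and small ones are easier to reach for genes that vary little.

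Beyond these components, 48 further complement genes were listed by role, of which 43 had a probe set and 39 passed the filter. Of the 39, 3 passed through 1 group only, Itgax and C5ar1 through AAV-IFNα and C7 through the AAV combination, so the counts below describe the genes tested. With AAV-IFNα, 16 of the 39 were higher than in Mock and 1 was lower, against 11.2% and 5.06% of all probe sets. The 16 include C1rb, C1s2 and C4a, copies of C1ra, C1s1 and C4b whose separate levels are uncertain where probes are shared. With the AAV combination 8 were higher, against 4.19% of all probe sets. Between the treated groups 1 was higher and 3 were lower in the AAV combination, against 0.394% and 2.2% of all probe sets. The 8 genes higher in the AAV combination than in Mock became 5 without Mock replicate 3 and 3 without combination replicate 2 or 3. The 4 genes that differed between the treated groups became 2 without AAV-IFNα replicate 1 or any 1 of the combination arrays, and 7 without AAV-IFNα replicate 3.

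In the classical and lectin pathways, 6 of 14 genes exceeded Mock with AAV-IFNα, 1 was below Mock, and 3 exceeded Mock with the AAV combination, all at the adjusted threshold. C1qa, a chain of the recognition protein C1q, read 7.58, 7.82 and 7.38 in Mock, 9.54, 8.96 and 8.75 with AAV-IFNα and 8.78, 8.58 and 8.75 with the AAV combination. It rose 2.80-fold (adjusted p = 0.00013) and 2.15-fold (adjusted p = 0.0038), and its treated groups overlapped. The other C1q chains, C1qb and C1qc, named after their values were seen, rose 2.71-fold and 2.69-fold with AAV-IFNα (adjusted p = 0.00048 and 0.00049), and their differences with the AAV combination were 0.75 and 0.71 (adjusted p = 0.061 and 0.075). C1rb, the copy of C1ra, rose 1.97-fold and 1.66-fold, and the copies of C1s1 and C4b, C1s2 and C4a, rose 1.30-fold and 1.56-fold with AAV-IFNα (adjusted p = 0.039 and 0.011). Colec10, for a collectin of the lectin pathway, was the lower gene, at 7.35, 7.16 and 7.0 in Mock against 5.92, 6.40 and 5.80 with AAV-IFNα (log2 difference -1.13, adjusted p = 0.0004), and read 6.72, 6.60 and 6.78 with the AAV combination. Mbl2, for a mannose-binding lectin, was higher with the AAV combination (0.62, adjusted p = 0.009) and had a difference of 0.37 with AAV-IFNα (adjusted p = 0.052). Fcna, for ficolin A, was the gene higher in the AAV combination than with AAV-IFNα (0.65, adjusted p = 0.021).

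Properdin, C9 and C4b-binding protein were higher in both treated groups. Cfp, for properdin, which stabilises the alternative convertase and is made mainly by leukocytes, rose 2.33-fold with AAV-IFNα (adjusted p = 0.00031) and 1.72-fold with the AAV combination (adjusted p = 0.019). Of 6 terminal pathway genes, C9, which forms the pore, was higher with AAV-IFNα, and C9 and C8b were higher with the AAV combination. C9 read 9.27, 8.95 and 8.47 in Mock, 10.08, 10.24 and 10.02 with AAV-IFNα and 9.57, 9.88 and 9.98 with the AAV combination, a rise of 2.32-fold (adjusted p = 0.00064) and 1.89-fold (adjusted p = 0.013). Every treated array of C9 was above every Mock array. Of 6 soluble regulators, C4bp, for the cofactor that binds C4b, was higher in both treated groups, 1.76-fold (adjusted p = 0.0031) and 1.54-fold (adjusted p = 0.037). Of 5 membrane regulators, Cd55 and Cd55b, copies for decay-accelerating factor, were higher with AAV-IFNα (0.76 and 0.70, adjusted p = 0.0084 and 0.0065).

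Among the genes listed here as complement receptors, Cd93, Itgb2, Itgam and C3ar1 were higher with AAV-IFNα than in Mock. Their log2 differences were 1.54, 1.56, 1.24 and 1.18 (adjusted p = 1.8e-05, 0.003, 0.0051 and 0.01). Binding was not measured. Of 9 measured receptors 7 were tested, and C5ar2 and Cr2 were too low in every group. Itgam, the α chain of the complement receptor CR3, and Cd93 were lower in the AAV combination than with AAV-IFNα, by -1.25 and -0.99 (adjusted p = 0.021 and 0.0054). Itgam read 4.82, 4.95 and 5.58 in Mock, 7.01, 6.03 and 6.04 with AAV-IFNα and 5.33, 5.01 and 4.98 with the AAV combination, so that the combination arrays lay inside the Mock range, close to the value of 5 that the filter treats as low. Itgax, the α chain of CR4, was tested through its AAV-IFNα arrays alone, at 6.05, 5.43 and 5.94, against 4.94, 4.89 and 4.75 in Mock and 4.35, 4.71 and 5.01 with the AAV combination. It was called higher than in Mock and lower in the AAV combination, but both other groups lay at the filter's limit, and no size is given for these differences. Vsig4, a receptor of Kupffer cells for C3 fragments, was higher with the AAV combination (0.72, adjusted p = 0.022) and had a difference of 0.50 with AAV-IFNα (adjusted p = 0.053), with every array above Mock.

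**Figure D4:**
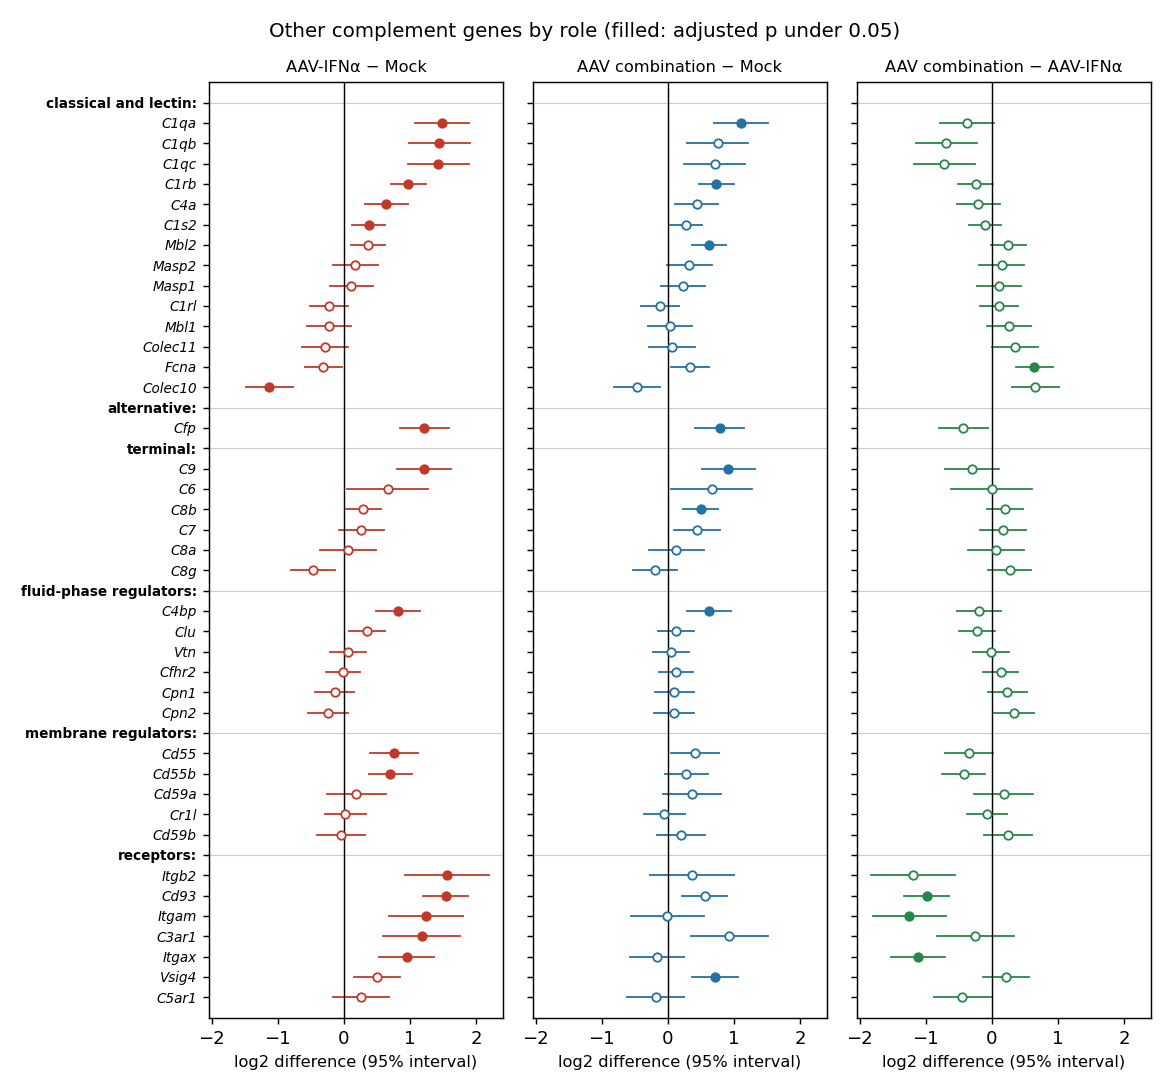
Log2 differences (x axis, 95% confidence intervals as lines) of 39 further complement genes grouped by role (y axis) in the 3 comparisons, filled where the adjusted p was under 0.05. The C1q chains, C1rb, Cfp and C9 lie to the right in the first panel. Itgam, Itgax and Cd93 of the receptor list are filled on the left in the last, Itgax with low values outside AAV-IFNα.

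Markers of Kupffer cells, monocytes, NK cells and neutrophils had higher summed signals in both treated groups than in Mock, and those of T cells with AAV-IFNα. For neutrophils the AAV combination and Mock were close, at 254 to 288 and 235 to 252. Such sums are weighted to the markers with the strongest signal, and not every marker of a list rose. Of all probe sets tested, 11.2% were higher and 5.06% lower with AAV-IFNα than in Mock, and 4.19% were higher with the AAV combination. The 8 Kupffer cell markers had a summed linear signal of 1504 to 1729 in Mock. The sum was 3377 to 3869 with AAV-IFNα and 2605 to 3448 with the AAV combination. With AAV-IFNα 3 of the 8 were higher and 1, Cd163, lower, and 3 were higher with the AAV combination. In Mock, AAV-IFNα and the AAV combination, means were 7.03, 9.89 and 9.41 for Marco but 8.12, 8.17 and 8.49 for Clec4f. The 8 monocyte markers, Itgam among them, summed to 372 to 468, 931 to 2381 and 694 to 1032. Ly6c2, Itgam, Fcgr1 and Ccr2 were higher with AAV-IFNα, Ccr2 having passed the filter through that group alone, and Cx3cr1 and Chil3 were not tested. With the AAV combination 1 of the 6 tested was higher than in Mock. There Ly6c2 had a mean of 8.21 against 4.62 in Mock, and Itgam one of 5.11 against 5.12. The 8 NK cell markers summed to 235 to 263, 714 to 994 and 318 to 371. Of 5 tested, 4 were higher with AAV-IFNα and 3 with the AAV combination, and Ncr1 passed the filter through AAV-IFNα alone. In the AAV combination Prf1, Klrb1c and Eomes had means of 5.23, 3.68 and 4.05, against 5.56, 3.84 and 4.26 in Mock. The 6 T cell markers summed to 195 to 227 in Mock, 264 to 440 with AAV-IFNα and 200 to 225 with the AAV combination, which lies inside the Mock range. Of 4 tested, 3 were higher with AAV-IFNα, and Cd3g and Cd8b1 passed the filter through that group alone. Of the neutrophil markers, which summed to 235 to 252, 293 to 415 and 254 to 288, Csf3r was the 1 of 5 tested that was higher with AAV-IFNα. The 5 B cell markers all had group means under 5. Of 8 endothelial markers, Pecam1, Cdh5 and Lyve1 were higher and Stab2 lower with AAV-IFNα, and Cdh5 was lower in the AAV combination than with AAV-IFNα (-0.64, adjusted p = 0.028). Their sums were 1193 to 1432, 1399 to 1529 and 1262 to 1636. Of 7 tested stellate cell markers, Lrat and Reln were lower with AAV-IFNα (-0.87 and -0.79). The other 5 were not called, and the median of the 7 was -0.039. The sums of the 8 measured were 2320 to 2822, 1853 to 2634 and 2458 to 2697. In the AAV combination 4 of 5 tested NK cell, 2 of 6 monocyte and 1 of 4 T cell markers were lower than with AAV-IFNα. So was 1 of 8 Kupffer cell markers, and 1 was higher, against 2.2% of all probe sets lower and 0.394% higher. The NK cell, monocyte and T cell lists hold markers that passed the filter through AAV-IFNα alone. C1q and properdin are known products of macrophages and other leukocytes, and Cd93 of endothelial cells as well. The part of these cells in any of the complement differences was not tested.

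Lists of other secreted liver proteins set the complement genes beside their tissue. Of 19 acute phase genes, 12 were higher with AAV-IFNα than in Mock and 5 with the AAV combination, Hp, Hpx, Lcn2, Lbp and Serpina3n. In the AAV combination 4 of the 19, Saa1, Saa2, Saa3 and Lcn2, were lower than with AAV-IFNα. Of 14 coagulation genes 1, Pros1, for the anticoagulant protein S, was higher with AAV-IFNα. Of the 10 hepatocyte markers, Tdo2 alone was higher with AAV-IFNα. Among all probe sets tested, 11.2% were higher with AAV-IFNα and 4.19% with the AAV combination than in Mock. In the AAV combination 2.2% were lower than with AAV-IFNα. The coagulation and hepatocyte counts lie near or under the 11.2%.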

How the data were processed

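Liver RNA of 9 mice was hybridised to 1 array each. The deposited log2 values had been background corrected, normalized and summarized into 22142 probe sets by the authors with RMA (version not given in the sources used here). On the platform the sources differ: Clariom S with total RNA in the methods, polyA RNA in the labels, and another Affymetrix mouse array in the design text. Of the probe sets, 19527 carry 1 gene symbol and 2615 none.

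Groups were taken from the sample titles. The filter on low values, from the methods, asked for more than 5 on 2 or more arrays of a group. Applied here to the log2 values it kept 14715 of the 22142 probe sets, whereas the methods give a number selected by it that is close to the whole deposited table, so the filter used here is stricter in effect than theirs. Tests used limma (version 3.58.1, R version 4.3.3, 6 residual and 6.91 prior degrees of freedom) and were two-sided, with Benjamini-Hochberg adjustment. An exact test of 3 against 3 arrays cannot go below p = 0.10. The members and lists were chosen with earlier results of these data known. Named are all members, up to 3 further complement genes per role with the smallest p, genes that a count of 5 or fewer needs, the 2 genes most like each member called, and markers that a sentence needs. Sequences are RefSeq's. Plots used Python 3.11.15 and matplotlib 3.10.9. The method was tested on simulated data with independent normal noise and added log2 differences of 1 and 2 in either direction. Smaller differences, as most of those here, were not simulated. As alternatives, the filter was dropped or raised to 6, and the fit was repeated with a trended robust prior, only the groups compared, a replicate block, renewed quantile normalization, median centring, array weights, 1 probe set per gene, other thresholds and leaving out each array.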

Additional observations from a re-analysis of the deposited data

How the results depend on the processing

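For the 8 complement components, 18 alternatives were run in each comparison, and no called difference changed direction. The 5 calls with AAV-IFNα kept their side of the threshold in all 18, with C2 between 1.47 and 1.69, C1ra between 1.02 and 1.22, Serping1 between 0.84 and 1.01, C4b between 0.54 and 0.72 and C1s1 between 0.40 and 0.56. With the AAV combination, C2 and C1ra kept theirs, Serping1 lost its call in 4 of 18, each with an array left out, and under both stricter thresholds, and C4b passed with the trended robust prior (adjusted p = 0.0464). A B-statistic above 0, the threshold of the methods, left 3 of the 5 components with AAV-IFNα, without C4b and C1s1, and 2 of the 3 with the AAV combination, as did an adjusted p under 0.01 for the latter. Of all probe sets tested, 6.03% had a B-statistic above 0 with AAV-IFNα and 2.4% with the AAV combination, against Mock. For the further complement genes a B-statistic above 0 left 11 of 17 with AAV-IFNα and 4 of 8 with the AAV combination. An adjusted p under 0.01 left 3 of these 8, and 2 of the 4 that differed between the treated groups. Leaving out 1 array gave 3 to 11 for the AAV combination against Mock and 2 to 7 between the treated groups. Correlations of same-numbered departures from the group means ran from -0.13 to 0.22. They exceeded 0.1 in 3 of 9 pairs, against 4 of 18 pairs of other numbers. So few pairs cannot show whether replicate numbers pair the mice. With the replicate block, 5, 3 and 0 of the components were called, and 16, 10 and 6 of the further genes. The cause of these changes was not tested.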
